A study of Mus musculus with 2 samples.

Results

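The regions described here are H3K27ac peaks that lay at the end of a protein-coding gene in Gata2 KO cells where the Gata2 f/f list had no peak nearby. A gene was a member when a KO peak lay within 1000 bp of either of its ends and no f/f peak lay within 5000 bp of either end. The members were chosen by the positions of peaks in both lists, that is, by the contrast between the genotypes, and no difference between the lists at these genes is tested. The rule gave 249 genes carried by 248 of the 71615 peaks in both lists, 1.22% of the 20396 protein-coding genes on chromosomes 1 to 19 (95% Wilson interval 1.08 to 1.38). The same rule with the lists exchanged gave 376 genes on 368 f/f peaks, 1.84% of the genes (1.67 to 2.04).

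H3K27ac, acetylation of a lysine in histone H3, was mapped by ChIP-seq in mouse MA9 cells, an acute myeloid leukaemia made by the fusion gene MLL-AF9, taken from the marrow of primary animals. One library was labelled Gata2 KO and the other Gata2 f/f, the floxed and intact gene. The labels give Cre as the agent and MIT as its control, a sort for GFP and tdTomato, and 7 to 9 days of culture with the growth factors SCF, IL-3 and IL-6, which all cells share. They tie neither Cre nor MIT to a library, and they do not say whether both libraries came from the same animal. With 1 library a group, every difference below describes these libraries and has no replicate check.

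H3K27ac sits on the nucleosomes that flank active gene starts and on active enhancers, and is removed when they fall silent. Gata2 encodes a zinc finger transcription factor that maintains haematopoietic stem and progenitor cells and is expressed in many myeloid leukaemias. Genes with CpG-rich starts are mostly used in many tissues. Genes of a single lineage, such as those for granule proteins or for surface receptors of phagocytes, more often start in CpG-poor sequence.

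The promoters of 9 members are given from RefSeq (GRCm38.p6), 250 bases before to 50 after the annotated start, 5′ to 3′ on the gene's strand. Each CpG dinucleotide is in capitals and the rest in lower case. The first 5 belong to the members of highest fold whose KO peak covered the start, and the other 4 to genes of blood cells. They are shown because CpG-rich and CpG-poor starts stand side by side among the members. The intervals are chr11:30649347-30649646 for Acyp2 (minus strand), chr19:33590262-33590561 for Lipo3 (minus), chr7:39449261-39449560 for Zfp939 (plus), chr10:125965969-125966268 for Lrig3 (plus) and chr2:14604056-14604355 for Cacnb2 (plus).
Acyp2: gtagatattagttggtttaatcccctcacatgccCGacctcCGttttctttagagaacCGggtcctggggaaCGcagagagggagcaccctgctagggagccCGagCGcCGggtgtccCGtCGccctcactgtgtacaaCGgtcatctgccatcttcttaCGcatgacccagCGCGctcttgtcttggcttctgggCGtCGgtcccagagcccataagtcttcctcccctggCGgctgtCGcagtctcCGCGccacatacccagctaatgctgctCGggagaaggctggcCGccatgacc
Lipo3: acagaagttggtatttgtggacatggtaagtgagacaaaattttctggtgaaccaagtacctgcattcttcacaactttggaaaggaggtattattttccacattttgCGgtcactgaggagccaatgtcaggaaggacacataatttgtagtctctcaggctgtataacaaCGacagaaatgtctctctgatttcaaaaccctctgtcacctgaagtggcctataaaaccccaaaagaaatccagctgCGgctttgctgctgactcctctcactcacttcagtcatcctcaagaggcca
Zfp939: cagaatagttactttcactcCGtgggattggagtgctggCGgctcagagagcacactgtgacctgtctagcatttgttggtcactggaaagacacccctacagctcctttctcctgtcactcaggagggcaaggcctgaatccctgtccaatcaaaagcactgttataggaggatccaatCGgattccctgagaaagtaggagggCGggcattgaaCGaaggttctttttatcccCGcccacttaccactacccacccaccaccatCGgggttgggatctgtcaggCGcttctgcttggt
Lrig3: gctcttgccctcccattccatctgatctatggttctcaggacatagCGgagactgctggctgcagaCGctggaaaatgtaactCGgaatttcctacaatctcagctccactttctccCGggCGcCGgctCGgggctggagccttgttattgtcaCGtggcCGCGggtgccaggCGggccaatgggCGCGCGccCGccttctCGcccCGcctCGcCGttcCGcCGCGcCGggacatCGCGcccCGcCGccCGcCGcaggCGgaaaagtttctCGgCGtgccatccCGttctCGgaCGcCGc
Cacnb2: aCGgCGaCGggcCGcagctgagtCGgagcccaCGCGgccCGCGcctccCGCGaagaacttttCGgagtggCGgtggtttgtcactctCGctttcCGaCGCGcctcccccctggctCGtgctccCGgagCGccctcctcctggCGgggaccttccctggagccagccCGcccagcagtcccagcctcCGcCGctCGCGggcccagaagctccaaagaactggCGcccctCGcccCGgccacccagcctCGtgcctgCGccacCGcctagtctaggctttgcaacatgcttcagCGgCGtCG

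The Lrig3 and Cacnb2 promoters hold 36 and 35 CpG, Acyp2 holds 21, Zfp939 holds 8 and Lipo3 holds 3. The genes of blood cells are at chr2:14229164-14229463 for Mrc1 (plus strand), chr11:96318017-96318316 for Hoxb4 (plus), chr3:90695672-90695971 for S100a9 (minus) and chr2:28084829-28085128 for Fcnb (minus). Hoxb4 holds 14 CpG, the macrophage gene Mrc1 holds 3, and the neutrophil genes S100a9 and Fcnb hold 2 each.
Mrc1: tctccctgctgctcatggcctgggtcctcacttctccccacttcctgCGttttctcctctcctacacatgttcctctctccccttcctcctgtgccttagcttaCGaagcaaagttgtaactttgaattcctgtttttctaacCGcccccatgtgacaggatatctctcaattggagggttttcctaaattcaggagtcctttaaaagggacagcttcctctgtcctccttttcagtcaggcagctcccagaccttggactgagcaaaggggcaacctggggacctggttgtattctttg
Hoxb4: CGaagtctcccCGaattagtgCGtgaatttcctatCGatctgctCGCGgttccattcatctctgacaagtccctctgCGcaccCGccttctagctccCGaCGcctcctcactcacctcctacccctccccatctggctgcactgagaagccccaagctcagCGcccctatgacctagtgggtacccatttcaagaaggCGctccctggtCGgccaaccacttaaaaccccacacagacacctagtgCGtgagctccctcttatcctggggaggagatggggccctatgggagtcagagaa
S100a9: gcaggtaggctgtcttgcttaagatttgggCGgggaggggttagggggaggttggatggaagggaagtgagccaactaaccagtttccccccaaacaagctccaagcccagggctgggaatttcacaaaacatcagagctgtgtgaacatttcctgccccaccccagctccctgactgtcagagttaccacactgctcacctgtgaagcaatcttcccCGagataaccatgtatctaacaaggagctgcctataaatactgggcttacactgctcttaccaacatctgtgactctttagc
Fcnb: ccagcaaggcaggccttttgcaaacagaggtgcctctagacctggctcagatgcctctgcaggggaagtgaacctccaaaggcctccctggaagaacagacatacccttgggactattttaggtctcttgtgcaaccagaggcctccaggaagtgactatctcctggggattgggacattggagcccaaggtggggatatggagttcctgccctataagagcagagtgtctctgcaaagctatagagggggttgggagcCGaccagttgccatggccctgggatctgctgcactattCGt

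Some facts of the libraries bear on all that follows. The KO list held 37302 peaks and the f/f list 34313. Gene-end peaks lay at 10607 genes in KO and 10704 in f/f, so the members are 2.35% of the KO genes, and the f/f-alone genes 3.51% of the f/f genes. Of 15 genes that mark myeloid leukaemia cells, 11 had a gene-end peak in KO and 14 in f/f. Gata2 had one in both, which does not check its deletion. The rule leaves out the starts of chromosomes 4, 6, 7, 13, 18 and 19, where 1 list or the other had hardly any peaks. On the sex chromosomes, also outside the rule, 10 genes met the same criteria in KO, among them the Y-linked Eif2s3y, Kdm5d and Uty, and 12 met them in f/f. These differences and the Gata2 genotype cannot be told apart.

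Most member peaks were modest calls. The authors' fold enrichment over background had a median of 2.81 at the members (range 2.16 to 8.51), against 3.34 at the f/f-alone genes, and 4.41 in KO at the 10133 genes marked in both lists. The median -log10 p was 5.01 at members, 6.96 at f/f-alone genes and 40.2 in KO at genes marked in both lists, and the median widths were 858, 814 and 1449 bp. Of the 249 members, 48 had a peak at or above the KO list's median -log10 p of 9.41, which is 0.235% of all genes tested. A fold of at least 3 was reached by 96 members and a fold of at least 5 by 13. In bulk samples, a mark in fewer cells and less of it in each cell cannot be told apart.

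**Figure D1:**
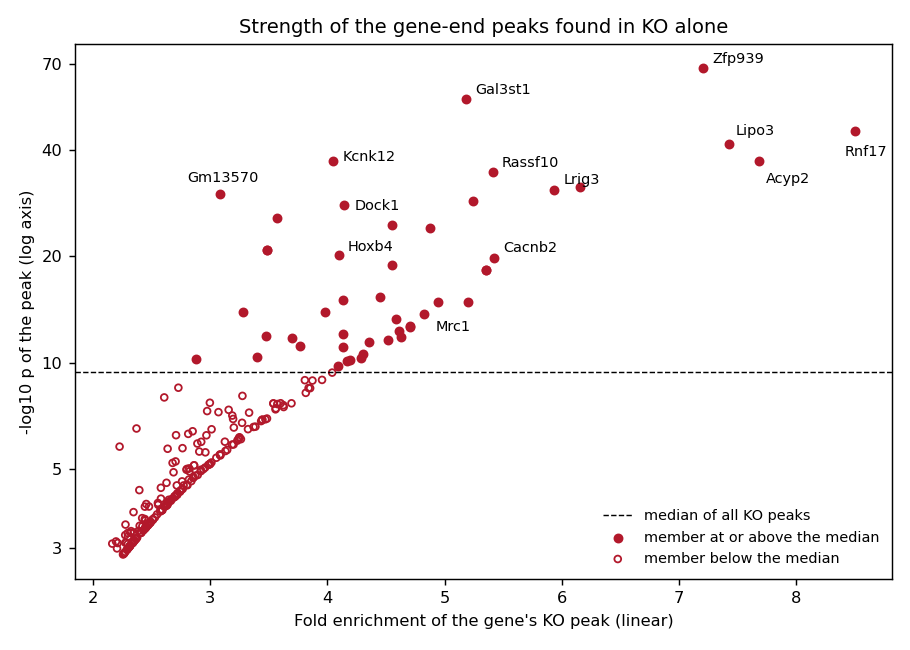
Fold enrichment (x axis, linear) and -log10 p (y axis, log scale) of the KO peak at each of the 249 members, as deposited by the authors. Each circle is a gene, filled where its peak reached the median -log10 p of all KO peaks (dashed line, 9.41), as 48 did, and most members lie close together below that line.

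Genes found in 1 list alone were concentrated among weak calls in both lists. The 10607 genes with a KO gene-end peak were put into 10 equal bins of -log10 p. The weakest bin held 200 of the 249 members, 18.9% of its 1061 genes, and the next bin held 27. In f/f the weakest bin held 257 of the 376 f/f-alone genes, 24.0% of its 1071 genes. Whether a member's f/f peak was missed because it lay near the calling limit was not tested.

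**Figure D2:**
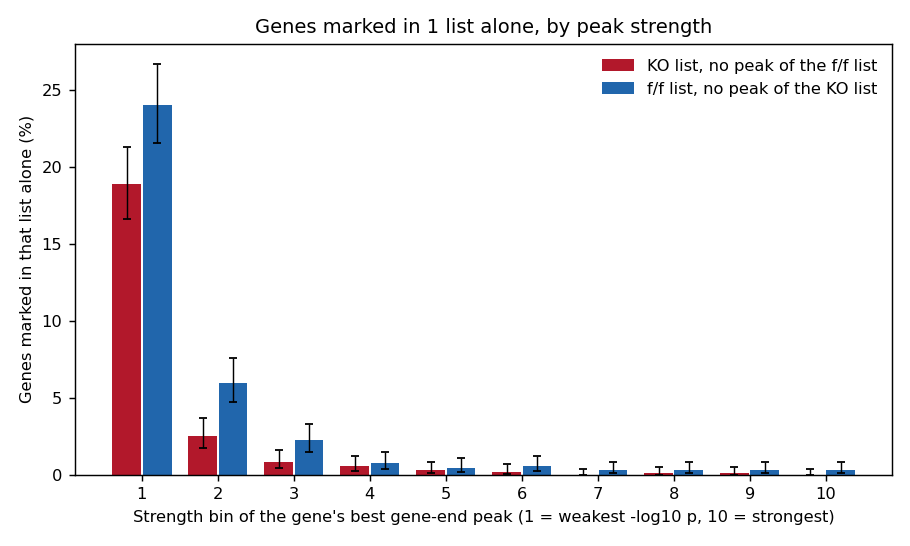
Percent of genes with a gene-end peak in a list that had no peak of the other list within 5000 bp of either end (y axis), by strength bin of the gene's best peak (x axis, 1 is weakest). Red bars are the KO list and blue bars the f/f list, with 95% Wilson intervals. The weakest bins stand at 18.9% in KO and 24.0% in f/f, and every other bin at or below 5.98%.

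The members nearest the limits show where the rule divided the genes. Just inside the 5000 bp limit lay Rbpjl, with the nearest f/f peak 5.05 kb from a gene end, Mill2 (5.09 kb) and Tmem235 (5.16 kb). Just outside lay Syt2 (4.91 kb), Cstdc6 (4.91 kb) and Dcaf1 (4.88 kb). The KO peaks of Fbxw25, Gm46238 and Cnpy1 lay 984, 979 and 976 bp from a gene end, just inside the 1000 bp limit, and those of Ciita, Pheta2 and Crtam at 1006, 1016 and 1024 bp, just outside. Ciita, the master regulator of MHC class II genes, thus missed membership by a few bases.

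The distance to the nearest acetylated region in f/f varied widely. The nearest f/f peak lay a median of 18.1 kb from a member's gene end, and over 100 kb away for 28 members. An f/f peak lay within 25 kb of the KO peak at 128 members, and one lay over the gene body at 46. At 85 members (34.1%) neither list had another peak within 25 kb, so the KO peak stood alone there. Among the f/f-alone genes this was so for 160 (42.6%). Members had a median gene length of 15.1 kb, against 26.1 kb for f/f-alone genes and 17.7 kb for all genes tested.

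Fewer member peaks than other gene-end peaks lay at a gene start. Of the 187 members in the promoter table, 126 (67.4%) had their peak within 1000 bp of an annotated start, against 222 of 275 f/f-alone genes (80.7%) and 7372 of 8248 genes marked in both lists (89.4%). Among the member peaks further from a start were those of Gal3st1 (7832 bp), Catip (5836 bp), Slc10a4 (4813 bp) and Olfr111 (3984 bp). At 25 members (10%) the peak also lay within 1000 bp of the end of another protein-coding gene, and which gene it belongs to cannot be told apart. In 4 such pairs both genes are members: Ifi27 with Ifi27l2a, Art1 with Art5, Lypd10 with Lypd11, and Cryab with 2310030G06Rik.

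The 5 members of highest fold came from unrelated families. Rnf17 encodes a Tudor domain protein of male germ cells, and its KO peak (chromosome 14, 56402474 to 56403230) had a fold of 8.51 and a -log10 p of 45.1. Acyp2, an acylphosphatase gene, had a peak over its start (chromosome 11, 30648972 to 30649714) with a fold of 7.68 and a -log10 p of 37.1. Lipo3 belongs to a mouse family of lipases related to lysosomal acid lipase, and its peak (chromosome 19, 33589499 to 33590461) had a fold of 7.43 and a -log10 p of 41.6. All 3 peaks were far from f/f peaks, the nearest lying 98.1 kb from the Rnf17 peak, 122 kb from the Acyp2 peak and 197 kb from the Lipo3 peak. Zfp939, a zinc finger gene, had the highest -log10 p of all members, 67.9, with a fold of 7.21 (chromosome 7, 39449206 to 39450252). The predicted gene Gm5134 followed with a fold of 6.16 (chromosome 10, 75953997 to 75954951). The 5 peaks were between 743 and 1047 bp wide, and those of Acyp2, Lipo3 and Zfp939 covered an annotated start.

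Next in fold came signalling, channel and chaperone genes. Lrig3 encodes a membrane protein of the LRIG family, which modulates receptor tyrosine kinases, and its KO peak (chromosome 10, 125965993 to 125967106) had a fold of 5.94 and a -log10 p of 30.8. The nearest f/f peak lay 443 kb from the gene, a gap exceeded among members only at Gm21586 (501 kb) and Cts3 (445 kb). Cacnb2, for a regulatory subunit of voltage-gated calcium channels, had a fold of 5.42, and 4 KO peaks against 3 f/f peaks lay over the gene. Rassf10, a Ras association domain gene, had a fold of 5.41 and a -log10 p of 34.5. The peak shared by Cryab, the gene of a small heat shock chaperone, and 2310030G06Rik had a fold of 5.35. Zfp948 (5.24), Zfp105 (5.20) and Gal3st1 (5.19) followed. Gal3st1, the sulfotransferase that makes the myelin lipid sulfatide, had a -log10 p of 55.5, the highest after Zfp939. Its peak lay 7832 bp from an annotated start.

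Sorted by what the genes are known to do, the members spread over 21 groups. The largest were predicted or little-known genes (37), signalling, GTPase and cytoskeleton genes (25), and matrix, adhesion and guidance genes (18). Lipid genes and other metabolic genes, most of them for enzymes, counted 17 each, and channels and transporters 14. Median folds ran from 2.38 in granulocyte genes to 3.84 in zinc finger genes, and the folds of the groups overlapped.

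**Figure D3:**
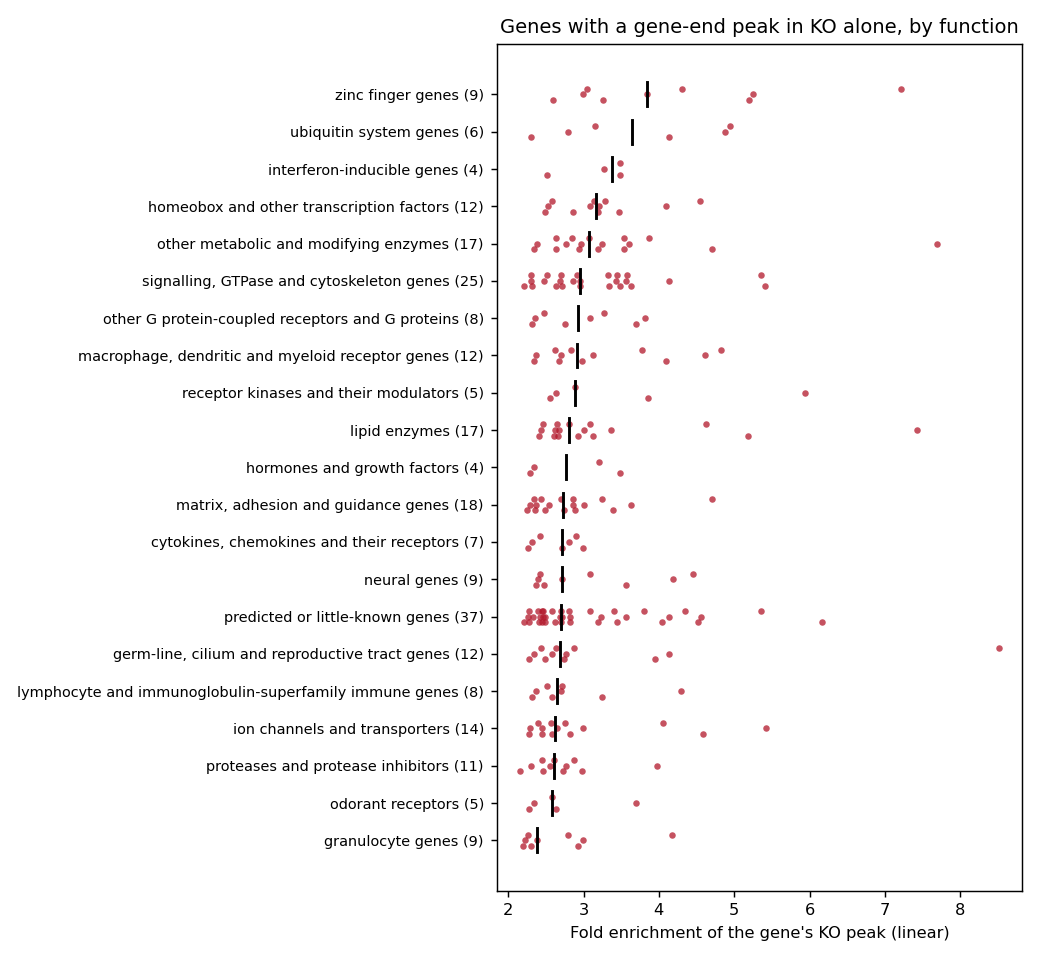
Fold enrichment (x axis, linear) of the KO peak at each member, by function group with the number of genes in brackets. Points are genes, spread vertically to keep them apart, and black bars are group medians, 3.84 for the 9 zinc finger genes at the top and 2.38 for the 9 granulocyte genes at the bottom.

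The 9 granulocyte genes carried mostly weak KO peaks, some of them wide. Rnase2a, Ear2 and Ear6 encode eosinophil-associated ribonucleases, a family that has expanded in the mouse, and the folds of their peaks were 4.17, 2.80 and 2.92. Fcnb, a ficolin of the lectin complement pathway, had a fold of 2.997 and a -log10 p of 7.71. S100a9, a subunit of the neutrophil protein calprotectin, had a fold of 2.23 over 2862 bp (chromosome 3, 90693456 to 90696317). Olfm4, a protein of neutrophil specific granules, had a fold of 2.20 over 3140 bp (chromosome 14, 80000482 to 80003621), with the nearest f/f peak 367 kb away. Among all members only Pate11 (3349 bp) had a wider KO peak than these 2 genes. Retnlg, a resistin-like gene of neutrophils, Stfa2l1, a stefin gene, and Mmp25, a membrane-anchored metalloproteinase of neutrophils, had folds of 2.31, 2.26 and 2.38. Rnase2a was the member of this group that reached the KO median -log10 p.

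Macrophage and other myeloid receptor genes numbered 12, of which 4 reached the KO median -log10 p. Mrc1, the mannose receptor of alternatively activated macrophages, had a KO peak over its start (chromosome 2, 14228693 to 14229469) with a fold of 4.83 and a -log10 p of 13.7, and further peaks in the gene in both lists (3 over the gene in KO, 2 in f/f). Maf encodes a transcription factor of macrophages, and its peak had a fold of 2.98 and a -log10 p of 5.15, with the nearest f/f peak 84.7 kb from the gene. Ms4a6d had a fold of 4.09, Ceacam10 3.77 and Cd300ld3 3.13. The receptors Trem2, for lipids, Fpr2, for formyl peptides, and Tlr5, for flagellin, had weak KO peaks with folds of 2.63, 2.68 and 2.37. Fcgrt, the neonatal Fc receptor (2.84), Cd200r3 (2.70) and Treml4 (2.34) also belonged to the group.

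Cytokine, chemokine and receptor genes had a median fold of 2.72 and interferon-inducible genes one of 3.38, against 2.81 over all members. The 7 cytokine, chemokine and receptor genes were Il18 (fold 2.998), Ccl17 (2.91), Il22ra2 (2.80), Cxcl12 (2.72), Csf2 (2.42), Il1f6 (2.31) and Osmr (2.27). Csf2 encodes GM-CSF, a growth factor of myeloid cells, and Cxcl12 the chemokine that retains stem cells in the marrow niche. All 7 lay below the KO median -log10 p. Of 4 interferon-inducible genes, Ifi27 and Ifi27l2a shared a KO peak (chromosome 12, 103434159 to 103435209) with a fold of 3.49 and a -log10 p of 20.8, and the other gene tested in the family had no gene-end peak. Gbp8, a guanylate-binding protein gene, had 3.27 and Trim30c 2.51.

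Lymphocyte-linked genes numbered 8. Timd2, of the TIM family of immune receptors, had the highest fold (4.29, -log10 p 10.3). The others, below the KO median -log10 p, were Mill2 (3.25), Vsig2 (2.71), Tigit (2.70), an inhibitory receptor of T and NK cells, Tbx21 (2.59), which encodes T-bet, Btnl6 (2.51), Clec2f (2.37) and Gimap5 (2.32). The Clec2f peak was the member peak closest to an f/f peak, 2.94 kb away, though that f/f peak lay over 5 kb from the gene's ends.

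Homeobox and other transcription factor genes, Maf not counted, numbered 12, most of them known from other tissues. Lbx2, a homeobox gene, had a peak with a fold of 4.55 and a -log10 p of 24.5 (chromosome 6, 83086700 to 83088198). Hoxb4, a homeobox gene of stem cells, had a peak over its start (chromosome 11, 96317978 to 96319456) with a fold of 4.10, a -log10 p of 20.2 and the nearest f/f peak 117 kb from it. Msantd3 had a fold of 3.28 and a -log10 p of 13.9. These 3 reached the KO median -log10 p. Nr2f1 (3.19), an orphan nuclear receptor, Gsc (3.08), the gastrula organiser gene goosecoid, Mafa (2.85), a factor of pancreatic beta cells, and Nfia (2.58) had weaker peaks. Taf7l2, Rbpjl, Ripply3 and Nrip2 had folds between 2.49 and 3.20.

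Signalling, GTPase and cytoskeleton genes were the largest group with known functions. Dock1, a Rac exchange factor that works with ELMO proteins, had a KO peak over its start (chromosome 7, 134669656 to 134671438) with a fold of 4.14 and a -log10 p of 27.9. Over the whole gene lay 5 KO peaks and 1 f/f peak. Elmo3, of the ELMO family, was also a member, with a fold of 2.69 at a peak it shared with E2f4. The adaptor gene Gab1 (3.48), the MAP kinase phosphatase gene Dusp16 (3.33), the Slit-Robo GTPase activator gene Srgap1 (2.96) and Rragd (2.63), a Rag GTPase of amino acid sensing, lay below the KO median -log10 p. So did Mlph (3.63), a linker for melanosome transport, Myo16 (3.57), Ptpdc1 (3.56), Pdlim4 (3.44) and Plekhs1 (3.43). Apart from Rassf10 and Cryab, Dock1 was the gene of this group that reached it. The other 12 genes of the group had folds between 2.21 and 3.32.

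Receptor kinase genes and their modulators numbered 5 with Lrig3. Tmem100, a membrane protein of BMP signalling, had a fold of 3.85, the GDNF receptor gene Ret 2.89, and the ephrin receptor genes Epha1 and Epha2 had 2.64 and 2.55. G protein-coupled receptors and G proteins numbered 8, none at the KO median -log10 p. They were Gng4 (3.82), Gprc5c (3.69), the apelin receptor gene Aplnr (3.27), the melatonin receptor gene Mtnr1b (3.09), Nmur2 (2.75), the fatty acid receptor genes Ffar1 (2.48) and Ffar3 (2.32), and Gnb4 (2.35). Hormone and growth factor genes were Gphb5 (3.48, -log10 p 11.9), a glycoprotein hormone subunit, Pth2 (3.20), Gdf5 (2.34) and the endothelin gene Edn1 (2.29).

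Matrix, adhesion and guidance genes had low folds apart from Nid2. This gene for the basement membrane protein nidogen had a fold of 4.70 and a -log10 p of 12.7, alone in its group above the KO median. The protocadherin genes Pcdhgb4 and Pcdhgb7 had folds of 3.62 and 3.39, the netrin genes Ntn4 and Ntn1 3.24 and 3.01, and the matricellular genes Ccn4 and Ccn5 2.37 and 2.34. Each of these families thus contributed a pair. Adamtsl1 (2.89), the integrin gene Itga10 (2.49), the cartilage gene Matn1 (2.25) and Plvap (2.29), of endothelial diaphragms, were also weak, and the other 7 lay between 2.35 and 2.86.

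Channel and transporter genes numbered 14, and 3 of them reached the KO median -log10 p. Kcnk12, of the tandem pore potassium channel family, had a KO peak of 2220 bp over its start (chromosome 17, 87795959 to 87798178) with a fold of 4.05 and a -log10 p of 37.0, and 3 KO peaks but no f/f peak over the gene. Slc10a4 had a fold of 4.59 and a -log10 p of 13.3, and the bile acid transporter gene Slc10a1, of the same family, a fold of 2.58. Cacnb2 was described above. The other 11 genes had folds from 2.28 upward, none above that of Tmem30c (2.997), and included the water channel gene Aqp8 (2.76), the transporter gene Abcc3 (2.82), the temperature-sensing channel gene Trpv3 (2.65), the glycine receptor gene Glra1 (2.57) and the muscle calcium channel gene Cacna1s (2.45). Of 9 neural genes, the copine gene Cpne8 (4.45, -log10 p 15.3, nearest f/f peak 262 kb from the gene) and Aplp1 (4.19, -log10 p 10.2), a relative of the amyloid precursor protein, reached the median. Syt17 (3.56), Nsg1 (3.08), the dendrin gene Ddn (2.71), Dpysl5 (2.47), Cabp7 (2.43), the retinal arrestin gene Sag (2.40) and Doc2a (2.36) did not.

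Genes of lipid metabolism, most of them for enzymes, numbered 17. Lipo2, near Lipo3 in its family cluster, had a fold of 4.63 and a -log10 p of 11.8, and with Lipo3 and Gal3st1 was among the 3 that reached the KO median. The ketone body enzyme gene Bdh1 (3.37), the pancreatic phospholipase gene Pla2g1b (3.09), the peroxisomal thiolase gene Acaa1b (3.01) and the fatty acid elongase gene Elovl2 (2.92) came next below it, with Acsbg3 (3.12). The endothelial lipase gene Lipg (2.61, -log10 p 7.98), the lipoxygenase gene Alox8 (2.65), the ceramidase gene Acer3 (2.44) and the carboxylesterase genes Ces1d (2.81) and Ces1a (2.46) had weaker folds. Pnliprp1, Osbpl11, St8sia5 and Mtmr7 lay between 2.41 and 2.68.

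Other metabolic and modifying genes, most of them for enzymes, numbered 17 with Acyp2. Among them were Uggt2 (4.70, -log10 p 12.6), a glycoprotein folding sensor of the endoplasmic reticulum, and the cytochrome P450 genes Cyp2b13 (3.87) and Cyp2ab1 (3.07). The collagen hydroxylase gene P3h2 had 3.60, and the ADP-ribosyltransferase genes Art1 and Art5 shared a peak of 3.54. The kinase gene Pdk2, which inhibits pyruvate dehydrogenase, had 3.25. Azgp1, Nat8, A3galt2, Dglucy, Bco1, Trmt13, Stbd1, Kyat1 and Sult2b1 had folds between 2.35 and 3.19. Apart from Acyp2 and Uggt2, all lay below the KO median -log10 p.

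Protease and inhibitor genes numbered 11, and 4 of them were kallikreins. Serpina10, a serpin that inhibits coagulation factors, had the highest fold (3.98, -log10 p 13.9, nearest f/f peak 190 kb away). The kallikrein 1-related peptidase genes Klk1b9, Klk1b1, Klk1b11 and Klk1b21 lay in 1 cluster on chromosome 7, with folds of 2.97, 2.88, 2.73 and 2.56. Their -log10 p values were 7.30, 10.2, 8.50 and 3.97, so that Klk1b1 reached the KO median. The peaks of Klk1b9 and Klk1b21 lay 2728 and 96886 bp from an annotated start. That of Klk1b21 also lay within 1000 bp of an end of the non-coding Klk1b12-ps. Htra3 (2.76), Cts3 (2.61), Htra4 (2.46), Adam19 (2.45), Fetub (2.31) and Asprv1 (2.16) were weaker.

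Zinc finger and ubiquitin system genes had the highest median folds of the 21 groups, 3.84 and 3.64. Of 9 zinc finger genes, Zfp939, Zfp948 (-log10 p 28.7), Zfp105 (14.8) and Bnc2 (fold 4.30, -log10 p 10.6) reached the KO median, and Zfp345 (3.84), Zfp595 (3.26), Zfp960 (3.05), Zfp108 (2.99) and Zfp651 (2.59) did not. Of 6 ubiquitin system genes, Klhdc7b (4.95, -log10 p 14.9), the ubiquitin ligase gene Rnf165 (4.87, 24.1) and Neurl1b (4.13, 12.1), whose product ubiquitinates Notch ligands, reached it. Fbxw25 (3.16), Rnf183 (2.80) and Btbd9 (2.30) did not.

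Germ-line, cilium and reproductive tract genes numbered 12 and were weak apart from Rnf17 and Catip (4.14, -log10 p 15.0). Cfap100, a gene of motile cilia, had 3.95, and the testis cytochrome c gene Cyct 2.87. The prostate and testis-expressed gene Pate11 had the widest member peak, 3349 bp at a fold of 2.58, with no f/f peak for 244 kb around the gene. The other 7, among them the beta-defensin gene Defb38 (2.49) and the seminal vesicle gene Svs2 (2.34), had folds between 2.27 and 2.77. Of 5 odorant receptor genes, Olfr111 (3.70, -log10 p 11.7) was the strongest, and Olfr1329 and Olfr1330 were neighbours with folds of 2.34 and 2.28. Predicted or little-known genes made up 14.9% of the members. Among them Gm5134, Gm13570 (3.08, -log10 p 29.9) and Gm40514 (3.57, 25.7) had the highest -log10 p, and 9 of the 37 reached the KO median.

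The members were set against 48 gene lists and families, beside the 1.22% of all genes found in KO alone and the 1.84% in f/f alone. They were 4 of 19 neutrophil genes (21.1%), where the f/f list had 0 alone. Gene-end peaks of any kind lay at 15 of these 19 in KO and 9 in f/f, against 10607 in KO and 10704 in f/f of all 20396 genes, with Chil3, Lcn2, Ly6g and Mmp9 unmarked at their ends in both. Of 20 monocyte and macrophage genes 3 (15%) were members and 0 were f/f alone, with 10 marked in KO and 6 in f/f, and C1qa, C1qb, C1qc, Cd163, Marco and Mertk among those unmarked in both. Stem and progenitor genes stood above both shares over all genes. Among these 16 genes, 2 (12.5%) were members (Hoxb4 and Gprc5c) and 4 (25%) were f/f alone (Angpt1, Cd34, Mecom and Rbpms). Of 15 myeloid leukaemia genes none was found in 1 list alone. Members among markers of other cells were few: Plvap of 10 endothelial genes, Cxcl12 of 9 stromal genes, and none of the erythroid, megakaryocyte, mast cell, dendritic, B, T and NK, epithelial and neuronal lists. Alone in f/f were 2 of 8 epithelial genes (Cdh1 and Epcam), 1 of 12 dendritic genes (Clec9a) and 1 of 8 neuronal genes (Slc17a7).

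Larger families showed shares on both sides of the 1.22% over all genes. These lists were drawn by patterns in gene symbols and are incomplete, so their counts differ from those of the function groups above. The members Aplnr, Mtnr1b and Nmur2 fall outside the receptor list, Srgap1 and Rragd outside the GTPase list, and Pdk2 and Ret outside the kinase list. Members were 4 of 80 interferon-inducible genes (f/f alone 2), 7 of 190 lipid genes (4), 4 of 115 serine proteases (2), 7 of 207 matrix and metalloprotease genes (6), 9 of 271 leukocyte surface receptors (8) and 6 of 266 detoxification enzymes (4). They were 9 of 361 cytokine and growth factor genes (f/f alone 16), 4 of 238 G protein-coupled receptors (12), 3 of 311 small GTPases and their regulators (14), 2 of 416 kinases and phosphatases (7) and 5 of 1096 olfactory receptors (7). Members were 0 of 203 mitochondrial (f/f alone 0), 0 of 91 ribosomal protein (0), 0 of 81 histone (0) and 0 of 120 DNA repair genes (2). They were also 0 of 348 vomeronasal and taste receptors (0). At 1.22%, lists of these sizes would hold few members, so nothing is read from these counts. Of the mitochondrial, ribosomal protein, histone and DNA repair genes, 90.6%, 83.5%, 60.5% and 86.7% were marked in both lists. Of the vomeronasal and taste receptors 0.575% were. No count is tested, since the rule used the contrast and the lists were read with results known.

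**Figure D4:**
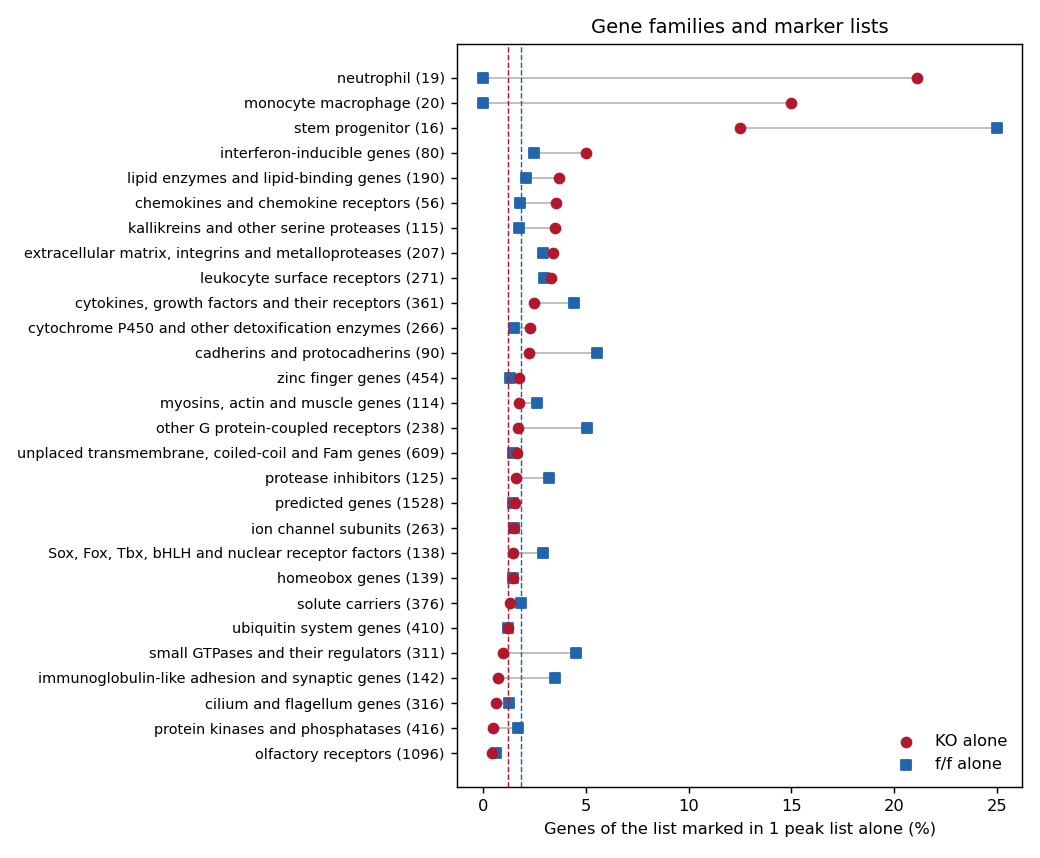
Percent of the tested genes of each list marked in KO alone (red circles) and in f/f alone (blue squares), for lists with at least 2 KO-alone or 4 f/f-alone genes, with the number of genes in brackets. Dashed lines are the shares over all 20396 genes, 1.22% in KO and 1.84% in f/f. The neutrophil and the monocyte and macrophage lists lie at 21.1% and 15% in KO and at 0 in f/f.

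Some members were neighbours or close relatives. In 13 runs of members within 100 kb of each other lay 31 of the 249 genes, the longest being the 4 kallikreins and Ifi27l2a, Ifi27, Ppp4r4 and Serpina10. Over the 13 Klk1b genes (chromosome 7, 43950666 to 44220703) the KO list had 5 peaks covering 7.03 kb and the f/f list had 0. Over the 4 Lipo genes (chromosome 19, 33499049 to 33787452) it had 2 peaks against 0, and over the 8 Ces1 genes (chromosome 8, 93020214 to 93379777) 2 against 0. All 3 clusters were without any f/f peak, and so was the stretch over the 3 Ifi27 genes, with 2 KO peaks. The rule partly fixed this absence, since it allowed no f/f peak within 5000 bp of a member's ends. At the Hoxb genes (chromosome 11, 96194316 to 96368254) the KO list had 6 peaks covering 6.61 kb and the f/f list 1 covering 1.18 kb. The Trem cluster had 9 KO peaks (14.3 kb) and 5 f/f peaks (9.06 kb), and the stretch from S100a8 to S100a9 had 3 KO peaks (6.52 kb) and 1 f/f peak (0.764 kb). At 3 further clusters the f/f peaks covered more: the Pcdhg genes had 5 KO peaks (3.54 kb) and 6 f/f peaks (7.64 kb), the Ms4a genes 16 (16.6 kb) and 16 (21.2 kb), and the Stfa genes 15 (15.4 kb) and 11 (16.5 kb). Covered length moves with how much was called in a library.

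By family, beside the 1.22% over all genes, members were 3 of 7 genes of the eosinophil ribonuclease family, 2 of 4 Ffar genes, 2 of 4 Ntn genes, 2 of 4 Htra genes, 2 of 6 Ccn genes and 2 of 14 Eph receptor genes. These families were chosen because members were in them, so that nothing is read from their shares. In the Ccn family Ccn3 was f/f alone, and among 21 Pcdhg genes 2 were members and 2 (Pcdhgb5 and Pcdhgb6) were f/f alone. Genes of the Klk1b, Lipo, Ces1, Ear, Zfp, Pcdhg, Lypd and odorant receptor families have near-identical copies. How reads with several matches were placed is not given in the sources used here. Which copy carried a peak is therefore uncertain.

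Within gene bodies, a few long genes were marked along their length. Adam19, a membrane-anchored metalloproteinase gene of 92.8 kb, had 6 KO peaks and 0 f/f peaks over the gene, the nearest f/f peak lying 98.7 kb from its ends, although its gene-end peak was weak (fold 2.45). Neurl1b and the little-known gene 1700016C15Rik had 3 KO peaks and 0 f/f peaks over the gene, as Kcnk12 did. At other long genes both lists had peaks over the body. Btbd9 had 9 KO and 7 f/f peaks over the gene, Nfia 7 and 6, Mtmr7 6 and 4, and Cd200r3 6 and 5.

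CpG content was read from the promoters, a measure the rule did not use. The 126 members with a peak at an annotated start had a median observed over expected CpG ratio of 0.33, against 0.694 for 222 f/f-alone promoters, 0.804 for 7372 promoters marked in both lists and 0.255 for 7251 genes with no gene-end peak in either list. CpG-rich promoters made up 31% of the member promoters, 58.1% of the f/f-alone promoters and 76.7% of those marked in both. By these medians the member promoters lay nearer to unmarked genes than to commonly marked ones. The promoters were not chosen alike, however. Marked genes were read at the annotated start nearest the peak, and unmarked genes at their start of lowest coordinate. Among peaks below their list's median -log10 p the members were again lowest and the other groups changed places, with median ratios of 0.285 for 98 members, 0.623 for 156 f/f-alone genes and 0.606 for 412 genes marked in both.

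**Figure D5:**
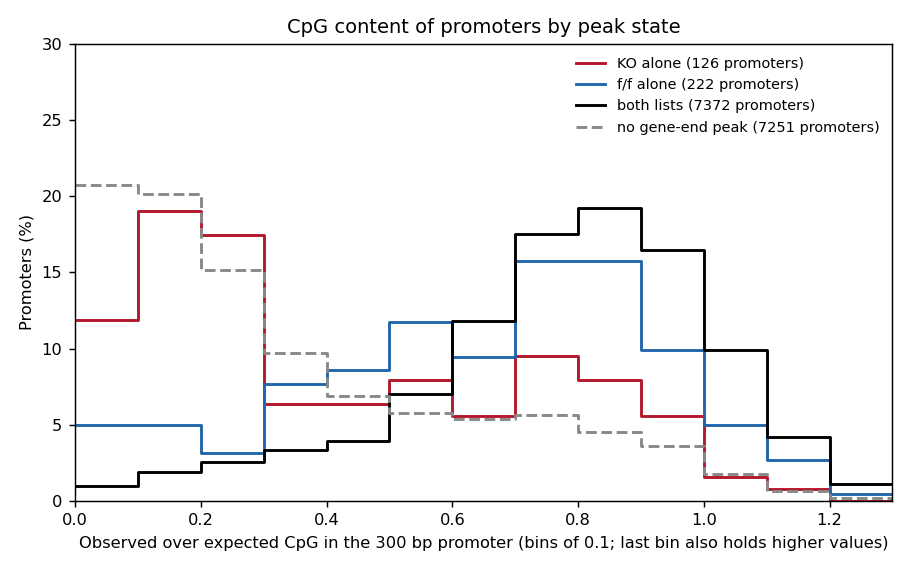
Distribution of the observed over expected CpG ratio (x axis, bins of 0.1) in the 300 bp promoters of genes marked at the start in KO alone, in f/f alone and in both lists, and of genes with no gene-end peak (y axis, percent of promoters). The KO-alone curve is highest between 0.1 and 0.3, that of unmarked genes below 0.2, and the f/f-alone curve between 0.7 and 0.9.

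The CpG ratio differed between function groups and with fold. Of the 16 signalling, GTPase and cytoskeleton promoters 11 had a ratio of at least 0.6, with a median of 0.82, and examples are Ptpdc1 (0.986), Srgap1 (0.949) and Dock1 (0.911). The 8 granulocyte promoters had a median of 0.109 and the 7 macrophage and myeloid receptor promoters one of 0.167, with no ratio above 0.327 in the second group and Mmp25 (0.612) alone above 0.6 in the first. Stfa2l1 held no CpG at all. Among all 126, the 51 members with a fold of at least 3 had a median ratio of 0.485 and the 75 below it one of 0.264.

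Short motifs were counted on both strands of the same promoters, overlaps between motifs being allowed. A GATA motif (AGATAA or AGATAG or TGATAA or TGATAG) was in 26.2% of member promoters, 14.4% of f/f-alone promoters, 16.3% of those marked in both lists and 36.1% of unmarked ones, against 29.8% of the 32851 promoters of the table. The ETS motif CCGGAA, which holds a CpG, was in 7.94% of member promoters, 13.5% of f/f-alone and 32.5% of those marked in both, against 14.9% of all. The SP/KLF motif GGGCGG, which also holds a CpG, was in 38.9%, 65.3% and 68.6% of the same sets, against 35.7% of all. The share of member promoters lay near that of all promoters for the GATA and SP/KLF letters. TATAAA was in 12.7% of member promoters and 13.6% of all, TGTGGT (RUNX) in 16.7% and 16.8%, CCAAT (NF-Y) in 37.3% and 37.4%, and CANNTG (E-box) in 76.2% and 72.3%. TTGCNNCAA or TTGCNNAA (C/EBP) was in 15.1% and 12.6%, and TGANTCA (AP-1) in 6.35% and 7.81%. The GATA, ETS and SP/KLF contrasts changed among peaks below their list's median -log10 p, mainly through the promoters marked in both lists. A GATA motif was there in 29.6% of 98 member promoters, 16.7% of 156 f/f-alone promoters and 25% of 412 promoters marked in both. The ETS motif was in 5.10%, 12.8% and 11.2% of the same sets, and the SP/KLF motif in 37.8%, 64.1% and 58.5%. Such a match is a string of letters in a window and not a measured site.

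The members were spread over all 19 chromosomes. They made up 0.75% of the genes tested on chromosome 19 and 2.06% on chromosome 16, the ends of the range, and chromosome 7 held the most, 28. The f/f-alone genes ran from 1.03% on chromosome 12, where members made up 1.77%, to 3.81% on chromosome 18, where members made up 1.20%.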

How the data were processed

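H3K27ac ChIP-seq of Gata2 KO and Gata2 f/f MA9 leukaemia cells was analysed from 1 peak list per genotype. BWA, SAMtools, MACS2 and mm10 are named in the submitters' processing notes. Versions, options, controls, duplicate handling and read depth were not given in the sources used here, and no replicate was pooled. Each peak holds the authors' score, fold enrichment (a ratio), -log10 p-value and -log10 q-value as deposited. The deposited score was not used, and the fold and -log10 values described, ranked or filtered the peaks of each list. Their medians stand side by side for both lists but depend on each library's depth, and no single peak's height was compared between lists.

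Gene positions and promoters came from RefSeq tables of GRCm38.p6, the assembly named mm10. Strand was taken from the promoter table, which held 187 of the 249 genes. Distances run between peak edges and gene ends. Python 3.11.15, pandas 2.3.3 and numpy 2.4.6 were used, and bedtools 2.31.1 gave the same numbers of genes. The search for genes was also checked on simulated peaks. Shares carry 95% Wilson intervals, which cover counting error only. A CpG-rich promoter had an observed over expected CpG ratio of at least 0.6 and a GC content of at least 50%.

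The genes and the gene lists were chosen with earlier results of these data known, and the function groups were assigned after the members had been seen. All members could be named, but some are not reported here. Full values were given by fold, -log10 p, width, family and shared peaks. The promoters of Mrc1, Hoxb4, S100a9 and Fcnb were chosen for printing after their values had been seen. Alternatives changed the peaks used, the windows, the gene end and the chromosomes.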

Additional observations from a re-analysis of the deposited data

Results flagged for a closer look

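The 6 chromosome starts left out of the gene counts held 92 genes marked at an end in KO alone and 13 in f/f alone, and 1 of the lists had hardly any peaks in each of them. Unplaced and unlocalised scaffolds, which no comparison used, carried 68 peaks in KO and 41 in f/f. On scaffolds assigned to chromosome 1 there were 18 peaks in KO and 2 in f/f. No control library against which to read these is given in the sources used here, and their causes were not tested.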

How the results depend on the processing

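The f/f-alone genes outnumbered the KO-alone genes in the main count (249 in KO, 376 in f/f) and under all 15 alternatives. Among peaks of at least 3-fold enrichment, 191 genes were KO alone and 816 f/f alone. Of these, 96 were among the 249 and 248 among the 376. The filter cut both lists, so a gene whose peak in the other list lay under 3-fold counted as alone. With calls limited to the stronger part of each list by -log10 p (its median or above), the KO-alone and f/f-alone genes were 48 and 100. With a gap of 1000 bp to the other list they were 474 and 571, and with one of 20000 bp they were 117 and 173. At gene starts by strand alone, where genes without a promoter entry drop out, they were 136 and 230. A -log10 q of at least 5 gave 176 KO-alone genes, of which 73 were among the 249, and the strongest 20000 peaks of each list gave 199, of which 55 were. The other alternatives gave 171 to 341 KO-alone genes. Peaks at an annotated start made up 62.0% of members within 500 bp and 72.2% within 2000 bp, against 67.4% within 1000 bp. Over 18 lists, 84 of 270 list counts moved by more than 1.5 times, 66 of them down. The 4 neutrophil genes became 0 among peaks of at least 3-fold enrichment, and the 3 monocyte and macrophage genes stayed 3. Read depth is unknown. No paired analysis was possible because each group has 1 library. CpG ratios limited to weaker peaks were added after seeing the data.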
